A study of Mus musculus with 16 samples.

Results

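Expression of 10 genes that mark activated fibroblasts and matrifibrocytes was followed in the ventricles of 16 male mice. The genes were Postn, Cilp, Cthrc1, Meox1, Fn1, Tnc, Sfrp2, Fap, Ddah1 and Ckap4, taken by symbol as markers of activated cardiac fibroblasts other than collagens, thrombospondins and CCN genes. They are 10 of the 55573 genes in the count table, and all 10 were among the 19955 genes that passed the filter on low counts. All mice carried the genotype aMHC-MerCreMer;Trbp-Flox/Flox, in which Cre is driven by a cardiomyocyte promoter and becomes active with tamoxifen. Tamoxifen (30 mg/kg, 5 daily doses, begun when the mice were 4 weeks old) was given to the Trbp-cKO mice, and corn oil to the controls. Control and Trbp-cKO mice, called the genotypes below after the induced deletion, were each studied after sham surgery or after TAC. TAC is a constriction of the aorta that raises the pressure load on the left ventricle. There were 4 hearts in each of the 4 groups. Hearts were taken about 8 weeks after surgery from mice 16 weeks old. Since no group here received tamoxifen with Cre but without the floxed alleles, the deletion cannot be told apart from tamoxifen and active Cre. Trbp was deleted in cardiomyocytes, whereas the 10 genes are known chiefly from fibroblasts.

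Fibroblasts of a healthy heart are quiescent. Under injury or pressure they become activated, divide and secrete extracellular matrix, and some later settle in the mature scar as matrifibrocytes, a state with genes otherwise seen in cartilage and tendon. TGF-β ligands, integrins that bind matrix proteins and Wnt signals are all known to take part. The 10 genes cover several roles. Postn (periostin), Cilp, Cthrc1, Fn1 (fibronectin) and Tnc (tenascin-C) encode secreted matrix or matricellular proteins, Sfrp2 a secreted protein that binds Wnt ligands, Meox1 a homeobox transcription factor, Fap a protease of the cell surface, Ddah1 an enzyme that breaks down asymmetric dimethylarginine, an inhibitor of nitric oxide synthases, and Ckap4 a membrane protein of the endoplasmic reticulum that can also serve as a receptor for Dkk1.

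Promoter windows were available for 6 of the 10 genes, as RefSeq sequences of build GRCm38.p6 from 250 bases before the transcription start to 50 from it. Those of 5 are shown in the genes' own direction, namely 3 genes that rose after TAC in both genotypes (Postn, Cilp and Sfrp2) and both genes whose response to TAC differed between the genotypes (Ddah1 and Ckap4). Capitals mark matches, on either strand, to the letters searched, which were CAGAC (the core bound by SMAD proteins), CATTCC (bound by TEAD factors), TGANTCA (bound by AP-1), TATAAA and GGGCGG (bound by SP factors).
Postn, chr3:54360857-54361156, plus strand: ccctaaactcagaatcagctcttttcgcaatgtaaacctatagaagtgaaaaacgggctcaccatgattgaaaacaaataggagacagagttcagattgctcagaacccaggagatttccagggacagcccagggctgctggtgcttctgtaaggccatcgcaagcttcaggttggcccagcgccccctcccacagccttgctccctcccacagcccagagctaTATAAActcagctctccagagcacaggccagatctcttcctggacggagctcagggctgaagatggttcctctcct
Cilp, chr9:65264930-65265229, plus strand: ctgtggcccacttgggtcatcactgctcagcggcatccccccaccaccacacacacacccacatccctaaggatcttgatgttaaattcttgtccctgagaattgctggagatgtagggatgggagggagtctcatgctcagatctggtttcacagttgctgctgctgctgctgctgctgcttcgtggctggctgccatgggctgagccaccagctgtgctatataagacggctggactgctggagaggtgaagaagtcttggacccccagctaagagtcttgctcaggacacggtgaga
Sfrp2, chr3:83766071-83766370, plus strand: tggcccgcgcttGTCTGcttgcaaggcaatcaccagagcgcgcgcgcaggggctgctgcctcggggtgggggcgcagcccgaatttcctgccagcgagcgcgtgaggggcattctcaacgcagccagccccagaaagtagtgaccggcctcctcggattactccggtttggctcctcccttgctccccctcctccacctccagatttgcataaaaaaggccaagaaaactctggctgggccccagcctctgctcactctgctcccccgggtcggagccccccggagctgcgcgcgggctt
Ddah1, chr3:145758442-145758741, plus strand: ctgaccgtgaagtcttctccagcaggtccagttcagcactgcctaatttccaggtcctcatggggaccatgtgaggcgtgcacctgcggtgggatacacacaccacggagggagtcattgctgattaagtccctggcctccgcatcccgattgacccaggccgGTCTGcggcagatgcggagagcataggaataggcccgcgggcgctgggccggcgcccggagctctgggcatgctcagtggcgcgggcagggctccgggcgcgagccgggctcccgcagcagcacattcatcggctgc
Ckap4, chr10:84533839-84534138, minus strand: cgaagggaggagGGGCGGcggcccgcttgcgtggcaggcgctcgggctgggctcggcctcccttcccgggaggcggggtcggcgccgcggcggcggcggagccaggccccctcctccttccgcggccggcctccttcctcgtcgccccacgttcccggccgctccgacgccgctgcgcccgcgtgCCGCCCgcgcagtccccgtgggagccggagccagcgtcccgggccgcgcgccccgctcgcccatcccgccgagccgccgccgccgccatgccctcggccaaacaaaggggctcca
The Postn window shown held TATAAA at position -26 from the start, and the other Postn window, which belongs to a RefSeq start further upstream at position 54359267 and is not shown, held CAGAC at -191. The Cilp window held none of the letters searched. CAGAC was read on the opposite strand at position -238 in Sfrp2 and at -87 in Ddah1. GGGCGG stood in the Ckap4 window at -238 and, on the opposite strand, at -65. No match overlapped another in these 5 windows. Among all 32851 promoter windows, 49.6% held CAGAC, 35.7% GGGCGG, 14.7% CATTCC, 13.6% TATAAA and 7.81% TGANTCA, so such matches are common and are given as a description. The RefSeq start of Ckap4 lies 174 bases inside the gene as GENCODE places it, and that of Ddah1 17 bases inside. Tnc was also matched, and Cthrc1, Meox1, Fn1 and Fap were not.

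Total counts ranged from 45166994 to 68274222 over the hearts. CPM, counts scaled to a common total after adjustment of library sizes by edgeR's TMM method, is the level used below, and differences between groups are fitted log2 fold changes from a quasi-likelihood test of all 16 hearts. A gene was called where the Benjamini-Hochberg adjusted p over the 19955 genes was at most 0.05 and the absolute log2 fold change at least 0.8. Tarbp2, which encodes Trbp, fell by 1.76 on the log2 scale in Trbp-cKO sham hearts (adjusted p = 2.38e-05, edgeR) and by 1.65 in Trbp-cKO TAC hearts (adjusted p = 1.17e-05), with every Trbp-cKO heart below every control heart. With a score of circadian clock genes in the fit, the difference in sham hearts was -1.48 (adjusted p = 0.776). That edgeR fit called 0 of 19955 genes between the sham groups, with 1130 at an unadjusted p under 0.05. Cardiomyocyte markers were abundant, as the ventricle label requires, with Myh6 between 7226 and 23689 CPM, while the adipocyte markers summed to at most 1.38 CPM and the 5 atrial markers to 5.09 to 12.3 CPM. Of the 3 atrial markers tested, 1 was called between the TAC groups. Myl4 was higher in Trbp-cKO TAC hearts (5.69 ± 1.53 CPM, SD, n = 4) than in control TAC hearts (1.53 ± 0.414 CPM), by 1.90 on the log2 scale (adjusted p = 0.00019), while Nr2f1 had -0.64 (adjusted p = 0.097) and Myl7 2.25 (adjusted p = 0.125). The part of these markers in the results was not tested.

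Among the 16, 3 hearts stood apart in the makeup of their RNA. The 10 cardiomyocyte markers summed to 27727 and 22356 CPM in control TAC hearts 1 and 2, against 54949 and 54975 CPM in control TAC hearts 3 and 4. Trbp-cKO TAC heart 4 had 31979.7 CPM, against 47038 to 55202 CPM in hearts 1 to 3 of its group. Sham hearts held 57040 to 62226 CPM in controls and 45291 to 59423 CPM in Trbp-cKO mice. The sum of 8 endothelial markers moved the other way, with 1550.1 and 1721 CPM in control TAC hearts 1 and 2 against 857 and 821 CPM in hearts 3 and 4, and with 1239 CPM in Trbp-cKO TAC heart 4 against 713 to 829 CPM in the others of its group. Trbp-cKO sham heart 3 also held 1292 CPM of them, and the other sham hearts 736 to 932 CPM. Mitochondrial transcripts took 38.2% and 38.8% of the counts of control TAC hearts 1 and 2 and 25.2% and 21.7% of those of hearts 3 and 4. They took 24.9% in Trbp-cKO TAC heart 4 and 18.2% to 20.3% in the others of its group. In bulk tissue, fewer cells of a type, less RNA per cell and lower expression of the marker genes themselves cannot be told apart. Myh6 and Atp2a2, with control sham means of 22831 and 8230 CPM, weighed most in the cardiomyocyte sum. The lowest control TAC heart had 1487 CPM of Atp2a2. For Myl2, with a control sham mean of 4984 CPM, it was 3354 CPM. Whether the 3 hearts differed in cells or in their response to TAC was not tested. Since most of the 10 genes were high in these 3 hearts, the counts of calls among the 10 are also given without them.

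Postn (ENSMUSG00000027750, chromosome 3, 54361109 to 54391037, plus strand, GRCm38) encodes periostin, the classic marker of the activated fibroblast. By replicate number, the control sham hearts had 39.0, 34.6, 42.8 and 39.7 CPM of it. It reached 388, 443, 150.2 and 195 CPM in control TAC hearts. It was 69.98, 62.8, 86.4 and 67.6 in the Trbp-cKO sham hearts and 699, 485, 539 and 1299 in the Trbp-cKO TAC hearts. The 4 groups did not overlap: their order was control sham, Trbp-cKO sham, control TAC and Trbp-cKO TAC, and control TAC hearts 3 and 4 were the low pair of their group. In control hearts the log2 fold change after TAC was 2.92 (standard error 0.36, adjusted p = 0.000581). In Trbp-cKO hearts TAC raised it by 3.40 (standard error 0.36, adjusted p = 3.47e-05), and after TAC it was higher in Trbp-cKO than in control hearts by 1.36 (standard error 0.34, adjusted p = 0.0304). That call between the TAC groups held in 22 of 30 alternative analyses and in 12 of the 16 that left out 1 heart each. It was lost without control TAC heart 3 or 4 and without Trbp-cKO TAC heart 1 or 4. In sham hearts the difference of 0.88 did not pass the test (adjusted p = 0.231).

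Cilp (ENSMUSG00000042254, chromosome 9, 65265180 to 65280605, plus strand) encodes cartilage intermediate layer protein, a matrix protein that can bind TGF-β and marks matrifibrocytes. Its CPM was 10.5, 11.6, 16.1 and 13.7 in control sham and 149, 179, 67.996 and 95.6 in control TAC hearts. It was 34.1, 20.96, 37.8 and 25.5 in Trbp-cKO sham and 338, 243, 282 and 621 in Trbp-cKO TAC hearts. As for Postn, no group overlapped another and the order of the groups was the same. The rise of Cilp with TAC was 3.24 (standard error 0.35, adjusted p = 0.000226) among controls. Among Trbp-cKO hearts it was 3.65 (standard error 0.35, adjusted p = 1.74e-05). After TAC the genotypes differed by 1.596 (standard error 0.33, adjusted p = 0.0115). The difference between the sham groups was 1.19 (adjusted p = 0.0852), beyond the spread between hearts but not past the test over all genes.

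Cthrc1 (ENSMUSG00000054196, chromosome 15, 39076932 to 39087121, plus strand) encodes a secreted glycoprotein made at sites of tissue injury, and it was the scarcest of the 10 in control hearts. It had 5, 5, 11 and 6 counts in the control sham hearts, or 0.0798, 0.0786, 0.178 and 0.106 CPM, and 1.05, 1.18, 0.116 and 0.263 CPM in control TAC hearts. With Trbp-cKO sham surgery it lay at 0.273, 0.214, 0.293 and 0.292 CPM and in Trbp-cKO TAC hearts at 2.67, 2.48, 1.98 and 8.58 CPM. Control TAC heart 3 fell among the control sham hearts, whereas every Trbp-cKO TAC heart was above every other heart of the study. The log2 fold change was 2.53 for TAC in controls (standard error 0.70, adjusted p = 0.0447) and 3.87 for TAC in Trbp-cKO ventricles (standard error 0.64, adjusted p = 0.00114). The call for TAC in controls held in 11 of 30 alternative analyses and in 4 of the 16 that left out 1 heart each. After TAC, Trbp-cKO hearts exceeded control hearts by 2.60 (standard error 0.59, adjusted p = 0.0198). That difference was 1.87 without Trbp-cKO TAC heart 4 and 4.35 without control TAC hearts 1 and 2. Trbp-cKO sham hearts were all above control sham hearts, at a difference of 1.26 with a 95% confidence interval of -0.32 to 2.83 (adjusted p = 0.504).

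Fn1 (ENSMUSG00000026193, chromosome 1, 71585520 to 71653200, minus strand) encodes fibronectin, the matrix protein on which integrin α5β1 acts. Its CPM was 48.5, 44.2, 45.4 and 44.3 in control sham, 61.7, 80.4, 50.2 and 59.9 in control TAC and 40.4, 56.5, 52.9 and 53.5 in Trbp-cKO sham hearts. In Trbp-cKO TAC hearts it was 132, 113, 123 and 161. The Trbp-cKO TAC hearts thus lay above all 12 others, while the remaining groups were close together. TAC raised Fn1 in Trbp-cKO hearts by 1.38 (standard error 0.15, adjusted p = 3.97e-05), and Trbp-cKO TAC hearts exceeded control TAC hearts by 1.07 (standard error 0.15, adjusted p = 0.000779). In control hearts the difference after TAC was 0.47 (adjusted p = 0.0696). Exons of Fn1 share 292 bases with Apol7d on the opposite strand, and reads of both cannot be told apart where strand was not used in counting.

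Tnc (ENSMUSG00000028364, chromosome 4, 63959785 to 64047015, minus strand), which encodes the anti-adhesive matrix protein tenascin-C, was low in all groups. Its CPM was 3.72, 1.26, 1.28 and 0.969 in control sham and 5.82, 5.31, 2.82 and 2.54 in control TAC hearts. It was 1.16, 1.80, 2.24 and 1.35 in Trbp-cKO sham and 4.25, 5.53, 4.55 and 3.30 in Trbp-cKO TAC hearts. Control sham heart 1 was apart from the rest of its group and lay among the TAC hearts. TAC raised Tnc in Trbp-cKO hearts by 1.42 (standard error 0.40, adjusted p = 0.0327). In control hearts the difference was 1.19 (standard error 0.39, adjusted p = 0.0798). It was 1.80 (adjusted p = 0.0122) without control sham heart 1 and 0.57 (adjusted p = 0.761) without control TAC hearts 1 and 2, and it was also called by DESeq2 and without control TAC heart 3 or 4. Between the genotypes after TAC it was 0.10 with an interval of -0.72 to 0.91. Exons of Tnc share 176 bases with 8030451A03Rik on the opposite strand.

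Sfrp2 (ENSMUSG00000027996, chromosome 3, 83766321 to 83774316, plus strand), the Wnt-binding member, had 1.79, 2.03, 3.00 and 2.31 CPM in control sham and 17.2, 19.2, 3.78 and 5.51 CPM in control TAC hearts. It had 9.38, 2.61, 3.79 and 3.36 CPM in Trbp-cKO sham and 30.4, 19.2, 33.1 and 93.0 CPM in Trbp-cKO TAC hearts. Both TAC groups lay above their sham groups, and the lowest Trbp-cKO TAC heart was only just above the highest control TAC heart, at 19.23 against 19.22 CPM. The rise after TAC was 2.32 among controls (standard error 0.59, adjusted p = 0.0323). Among Trbp-cKO hearts it was 3.21 (standard error 0.60, adjusted p = 0.00285). The difference between genotypes after TAC, 1.94, did not pass the test (standard error 0.57, adjusted p = 0.0582). It was 1.27 without Trbp-cKO TAC heart 4 and was called in 6 of 30 alternative analyses, among them those without Trbp-cKO sham heart 1 or Trbp-cKO TAC heart 2. Exons of Sfrp2 share 347 bases with Gm26771 on the opposite strand.

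Meox1 (ENSMUSG00000001493, chromosome 11, 101877510 to 101894374, minus strand) encodes a transcription factor tied to the switch of cardiac fibroblasts to the activated state. Its CPM was 21.3, 11.4, 15.03 and 13.5 in control sham and 64.8, 80.2, 23.1 and 25.2 in control TAC hearts. It was 14.2, 10.4, 18.2 and 12.9 in Trbp-cKO sham and 50.03, 49.1, 78.4 and 92.5 in Trbp-cKO TAC hearts. The control TAC hearts formed 2 pairs, hearts 1 and 2 within the range of the Trbp-cKO TAC hearts and hearts 3 and 4 close to the sham hearts. TAC raised Meox1 by 1.66 among controls (standard error 0.37, adjusted p = 0.0195). Among Trbp-cKO hearts the rise was 2.28 (standard error 0.38, adjusted p = 0.00122). The genotypes did not differ past the test after TAC (0.48, interval -0.29 to 1.25, adjusted p = 0.465) or after sham surgery (-0.14, adjusted p = 0.929).

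Fap (ENSMUSG00000000392, chromosome 2, 62500943 to 62574075, minus strand), the surface protease by which activated fibroblasts are often recognized, was the only one of the 10 that was called in no comparison. Its CPM lay between 3.21 and 3.98 in control sham, 4.04 and 4.79 in control TAC, 3.36 and 4.98 in Trbp-cKO sham and 2.93 and 6.16 in Trbp-cKO TAC hearts. The control TAC hearts were all above the control sham hearts, by a log2 fold change of 0.27 (adjusted p = 0.37), and the other groups overlapped. TAC in Trbp-cKO hearts gave -0.10 with an interval of -0.51 to 0.32, so that a rise of the size seen for Fn1 or Tnc lay outside the interval.

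Ddah1 (ENSMUSG00000028194, chromosome 3, 145758675 to 145894277, plus strand) had 10.2, 11.2, 11.04 and 11.6 CPM in control sham, 13.4, 14.9, 12.7 and 14.7 CPM in control TAC and 9.93, 10.7, 9.32 and 10.1 CPM in Trbp-cKO sham hearts. In Trbp-cKO TAC hearts it had 23.3, 19.7, 29.3 and 36.9 CPM, above all 12 others. TAC raised it by 1.45 in Trbp-cKO ventricles (standard error 0.15, adjusted p = 2.7e-05), and the genotypes differed by 0.97 after TAC (standard error 0.15, adjusted p = 0.00152). In control hearts TAC gave 0.34 (adjusted p = 0.155). The spread within the 3 other groups was small, with coefficients of variation of 5.17% to 7.55%, against 27.6% in Trbp-cKO TAC hearts.

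Ckap4 (ENSMUSG00000046841, chromosome 10, 84526305 to 84534062, minus strand) had 32.4, 29.1, 32.6 and 27.2 CPM in control sham, 34.0, 37.6, 35.5 and 31.99 CPM in control TAC and 28.7, 24.3, 29.1 and 27.7 CPM in Trbp-cKO sham hearts. It had 49.8, 61.3, 59.8 and 49.8 CPM in Trbp-cKO TAC hearts, again above all 12 others. TAC raised it by 1.01 in Trbp-cKO ventricles (standard error 0.10, adjusted p = 2.09e-05) and gave 0.20 in control hearts (adjusted p = 0.213). The genotypes differed after TAC by 0.67 (standard error 0.10, adjusted p = 0.00139), past the threshold on p but below that of 0.8 on the log2 fold change. Ckap4 was highest in heart 2 of that group and not in heart 4.

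**Figure D1:**
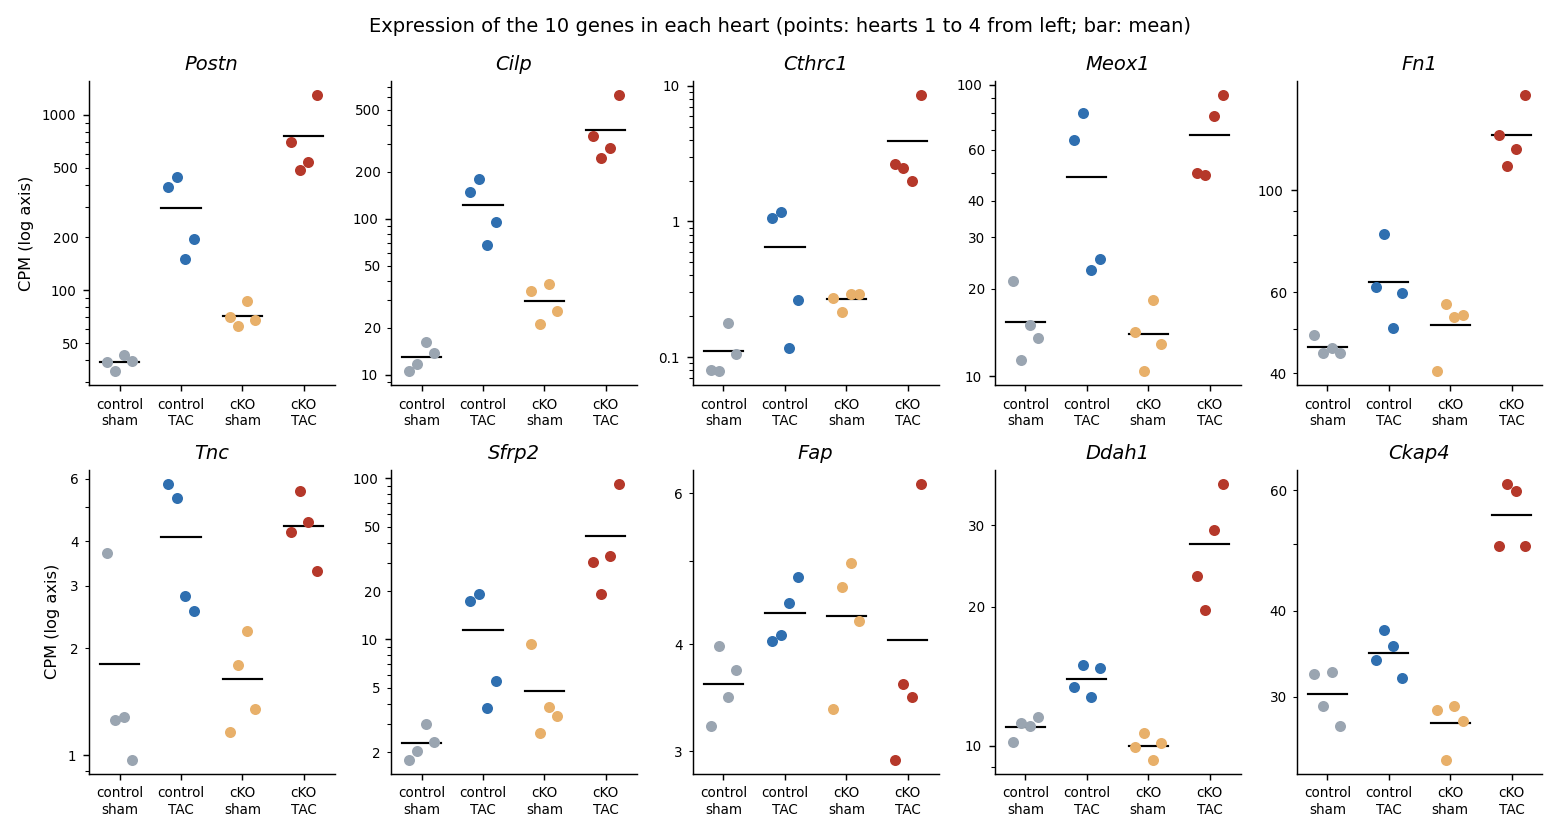
CPM of the 10 genes on a log axis, with 1 point for each heart (replicates 1 to 4 from left to right within a group), a bar at the mean of the 4 hearts and the groups control sham, control TAC, Trbp-cKO sham and Trbp-cKO TAC on the horizontal axis. Trbp-cKO TAC hearts lie above all other hearts for Fn1, Ddah1, Ckap4, Postn, Cilp, Cthrc1 and, narrowly, Sfrp2, while the control TAC hearts split into a high and a low pair for Postn, Cthrc1, Meox1, Tnc and Sfrp2.

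The first comparison asked what pressure load did in control hearts. TAC raised 5 of the 10 genes in control hearts, Postn, Cilp, Cthrc1, Meox1 and Sfrp2, and lowered none. Among all genes tested 2.50% were called higher and 1.25% lower. The median log2 fold change of the 10 was 1.42, against 0.02 over all genes. The fold of group means was largest for Cilp, at 9.44, and Postn, at 7.54. Fn1, Tnc, Fap, Ddah1 and Ckap4 had log2 fold changes of 0.20 to 1.19 and were not called. In 7 of the 10 genes every control TAC heart was above every control sham heart, which held for 8.64% of all genes tested. Without control TAC hearts 1 and 2, a choice made after seeing the data, 2 of the 10 were called, Postn at 2.15 (adjusted p = 0.00419) and Cilp at 2.65 (adjusted p = 0.0025), beside 0.418% of all genes called higher. In that fit Cthrc1 was at 0.76, Meox1 at 0.66 and Sfrp2 at 1.02. Leaving out any 1 of control TAC hearts 1 and 2 or control sham hearts 2, 3 and 4 also left the calls of Postn and Cilp alone.

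The second comparison asked whether these genes differed by genotype without pressure load. None of the 10 was called between Trbp-cKO sham and control sham hearts by edgeR's quasi-likelihood test, where 0.511% of all genes were called higher and 0.456% lower. At an unadjusted p under 0.05 there were 2, Postn and Cilp. The share of all genes at that level in this same fit is not given here. A different fit, that without Trbp-cKO TAC heart 4, had 3178 of 20300 genes at that level. DESeq2 called 1, Cilp, beside 1.03% of all genes called higher. edgeR's exact test on these 2 groups called 3, Postn, Cilp and Cthrc1, beside 1.76% of all genes. These same 3 genes had every Trbp-cKO sham heart above every control sham heart, which held for 7.74% of all genes. Their group means differed 1.84-fold for Postn, 2.28-fold for Cilp and 2.42-fold for Cthrc1. Meox1, Tnc, Ddah1 and Ckap4 had log2 fold changes of -0.14, and Fn1 and Fap of 0.16 and 0.26. Sfrp2 had 1.06 (adjusted p = 0.466), with Trbp-cKO sham heart 1 far above the rest. Leaving out Trbp-cKO TAC heart 4, which is in neither group but sets part of the shared spread, let Cilp be called, beside 0.739% of all genes called higher. Leaving out control TAC hearts 1 and 2 as well gave 3 calls, beside 268 of 20635 genes called higher, where the fit of all hearts called 102 of 19955.

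The third comparison asked whether hearts under pressure load differed by genotype. Trbp-cKO TAC hearts had higher levels than control TAC hearts in 5 of the 10 genes, Fn1, Ddah1, Cilp, Cthrc1 and Postn, and lower levels in none. Among all genes 1.55% were called higher and 0.912% lower. The median log2 fold change of the 10 was 1.02, against -0.01 over all genes. The hearts of both groups did not overlap for 7 of the 10, these 5 with Sfrp2 and Ckap4, which held for 6.12% of all genes. Meox1, Tnc and Fap overlapped and had log2 fold changes of 0.48, 0.10 and -0.10. Without control TAC hearts 1 and 2, 7 of the 10 were called, with Sfrp2 at 3.23 (adjusted p = 0.0192) and Meox1 at 1.47 (adjusted p = 0.0139) added to the 5, beside 1.46% of all genes called higher. Without Trbp-cKO TAC heart 4 alone, 3 were called, Cilp, Cthrc1 and Fn1, beside 1.77% of all genes called higher. In a fit of only the 8 hearts of both groups none was, beside 0.355% of all genes called higher. There the log2 fold changes were 1.35 for Postn, 1.58 for Cilp, 2.58 for Cthrc1, 1.06 for Fn1 and 0.96 for Ddah1. These were close to those of the fit of all hearts.

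The fourth comparison was that of TAC with sham surgery in Trbp-cKO hearts. TAC raised 9 of the 10 genes, all but Fap, where 3.23% of all genes were called higher and 2.34% lower. The median log2 fold change of the 10 was 1.86, against -0.00157 over all genes. Cthrc1, Cilp, Postn and Sfrp2 rose the most, by 3.87, 3.65, 3.40 and 3.21, and Ckap4 rose the least, by 1.01. Without Trbp-cKO TAC heart 4 the same 4 genes rose by 3.14, 3.28, 3.00 and 2.54. In the 9 genes every Trbp-cKO TAC heart was above every Trbp-cKO sham heart, which held for 9.05% of all genes. The count stayed at 9 without Trbp-cKO TAC heart 4 and control TAC hearts 1 and 2 together, beside 3.09% of all genes called higher. With the clock score in the fit, 5 were called, Postn, Cilp, Fn1, Ddah1 and Ckap4, beside 1.15% of all genes called higher.

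**Figure D2:**
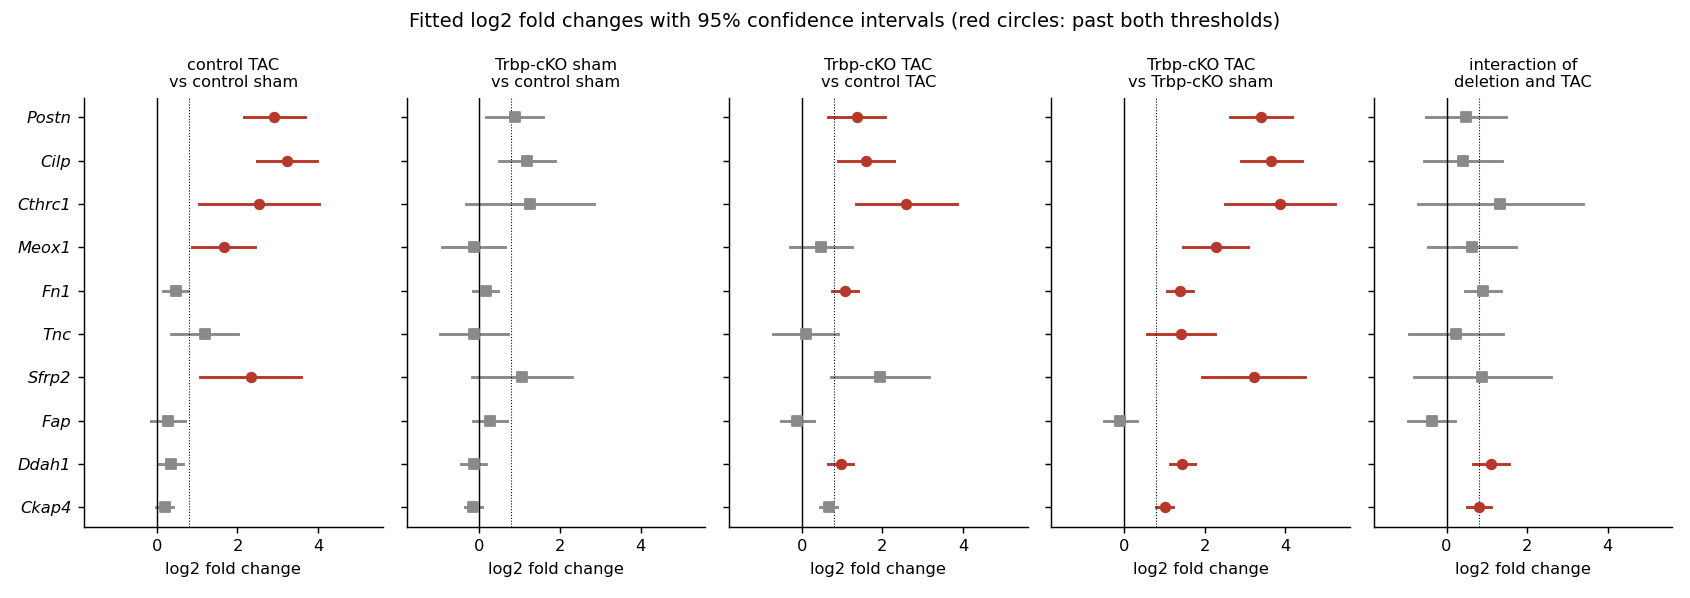
Fitted log2 fold changes (horizontal axis) of the 10 genes with 95% confidence intervals in each of the 5 tests, where red circles passed both thresholds, grey squares did not, and the dotted line stands at 0.8. Trbp-cKO TAC hearts exceed Trbp-cKO sham hearts in 9 of 10 genes, no gene is called between the sham groups, and Ddah1 and Ckap4 are called in the interaction.

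The interaction asked whether the genotypes differed by another amount after TAC than after sham surgery. It was called for 2 of the 10, Ddah1 at 1.10 (standard error 0.21, adjusted p = 0.022) and Ckap4 at 0.81 (standard error 0.14, adjusted p = 0.0154). Among all genes 0.446% were called higher and 0.426% lower. Fn1 had 0.91 (standard error 0.21) with an adjusted p just above the threshold, 0.0501. For Postn and Cilp, which rose in both genotypes, the interaction was 0.48 and 0.41 with intervals of -0.52 to 1.48 and -0.56 to 1.37, so that these data do not show a larger response of either gene in Trbp-cKO hearts. Cthrc1 had 1.34, Sfrp2 0.89, Meox1 0.62, Tnc 0.24 and Fap -0.37, none past the test. The Ddah1 call was lost without control TAC hearts 1 and 2 (1.12, adjusted p = 0.0519), where Fn1 (1.10, adjusted p = 0.0177) and Ckap4 (0.85, adjusted p = 0.0213) were called, and with the clock score in the fit Ddah1 was at 0.30 (adjusted p = 0.77) and Ckap4 at 0.76 (adjusted p = 0.668), in a fit that called 1 of all 19955 genes higher and 0 lower. Leaving out 1 heart at a time gave 0 to 3 calls, with 1 or none without control sham heart 1, 3 or 4, control TAC heart 1, Trbp-cKO sham heart 2, 3 or 4 or Trbp-cKO TAC heart 3.

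Levels of different genes were compared per length, as RPKM, which divides CPM by the gene's exon length in kilobases. In control sham hearts Ckap4 was the most abundant of the 10 at 9.81 ± 0.841 RPKM (SD, n = 4), followed by Meox1 at 6.87 ± 1.91, whose hearts overlapped those of Ckap4. Postn, Fn1, Cilp and Ddah1 followed at 4.48 to 2.76 RPKM, each overlapping the next. Sfrp2 (1.06), Fap (0.635), Tnc (0.232) and Cthrc1 (0.0694) were the 4 lowest, with no overlap between neighbours in this order. In Trbp-cKO TAC hearts the order was another. Cilp (87.3 ± 40.2 RPKM) and Postn (86.8 ± 42.9) led and did not differ beyond their spread, and both were above Meox1 (30.3 ± 9.64) without overlap. Sfrp2 came next at 20.4 ± 15.4 RPKM and overlapped both Meox1 and Ckap4 (17.9 ± 2.02), followed by Fn1 (11.3) and Ddah1 (6.85). Cthrc1, last in the other groups, stood eighth at 2.46 ± 1.95 RPKM, above Fap (0.714) and Tnc (0.567). In control TAC hearts Postn (33.8 ± 16.5), Cilp (28.9 ± 11.8) and Meox1 (21.7 ± 12.8) led with overlapping hearts. Meox1 stood at 29.1 and 36.0 RPKM in control TAC hearts 1 and 2 and at 10.4 and 11.3 RPKM in hearts 3 and 4, which overlapped the hearts of Ckap4, next at 11.3 ± 0.767 RPKM. In Trbp-cKO sham hearts Ckap4 (8.88) and Postn (8.24) led.

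The 10 genes did not vary alike within a group. Control TAC hearts 1 and 2 were both above hearts 3 and 4 for 7 of the 10, Postn, Cilp, Cthrc1, Meox1, Fn1, Tnc and Sfrp2. The highest control TAC heart exceeded the lowest 10.1-fold for Cthrc1, 5.09-fold for Sfrp2, 3.47-fold for Meox1 and 2.95-fold for Postn, but only 1.17-fold for Ddah1 and Ckap4 and 1.19-fold for Fap. Trbp-cKO TAC heart 4 was the highest of its group for 8 of the 10, all but Tnc and Ckap4. Among control sham hearts the same ratio was 1.24 for Postn, but 3.84 for Tnc and 2.27 for Cthrc1. Among Trbp-cKO sham hearts it was 1.38 for Postn and 3.60 for Sfrp2. Within the TAC groups, the hearts high in these genes were those low in cardiomyocyte markers and high in endothelial markers. Trbp-cKO sham heart 3, the highest of its group for 7 of the 10, likewise had the lowest cardiomyocyte sum (45291 CPM) and the highest endothelial sum (1292 CPM) of that group. The part of this makeup in the results was not tested. The 12 resident fibroblast markers summed to 1799 to 1971 CPM in control sham and 2037 to 2825 CPM in control TAC hearts. Their sum was 2123 to 2768 CPM in Trbp-cKO sham and 2006 to 2926 CPM in Trbp-cKO TAC hearts. Gsn and Dcn, with control sham means of 956 and 386 CPM, weighed most in this sum. Single genes of that list moved more than its sum. TAC in control hearts raised 3 of them, Pi16 (1.75, adjusted p = 0.000678), Cygb (1.07, adjusted p = 0.00206) and Mfap5 (2.16, adjusted p = 0.00406). Pi16 and Cygb were also higher in Trbp-cKO sham than in control sham hearts, by 0.99 and 0.91, and TAC raised Pi16 and Mfap5 in Trbp-cKO hearts and lowered Scara5. Pdgfra, a receptor that defines cardiac fibroblasts, stood at 39.8 ± 4.84 CPM (SD, n = 4) with control sham surgery, 38.9 ± 4.05 with control TAC, 39.0 ± 2.72 with Trbp-cKO sham surgery and 37.0 ± 11.3 with Trbp-cKO TAC. Between Trbp-cKO TAC and control TAC hearts none of the 12 was called higher. Only Scara5 was called lower, at -1.21 (adjusted p = 0.0456). At an unadjusted p under 0.05 there were 4 in the fit of all 16 hearts. A different fit, that without Trbp-cKO TAC heart 4, had 5333 of 20300 genes at that level. Between the sham groups 11 of the 12 lay above 0, with a median log2 fold change of 0.54. In the interaction 1 of the 12 lay above 0, with a median of -0.55, and Lum was called lower. Macrophage markers summed to 310.02 to 486 CPM and lymphocyte markers to 1.54 to 4.53 CPM over all 16 hearts.

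**Figure D3:**
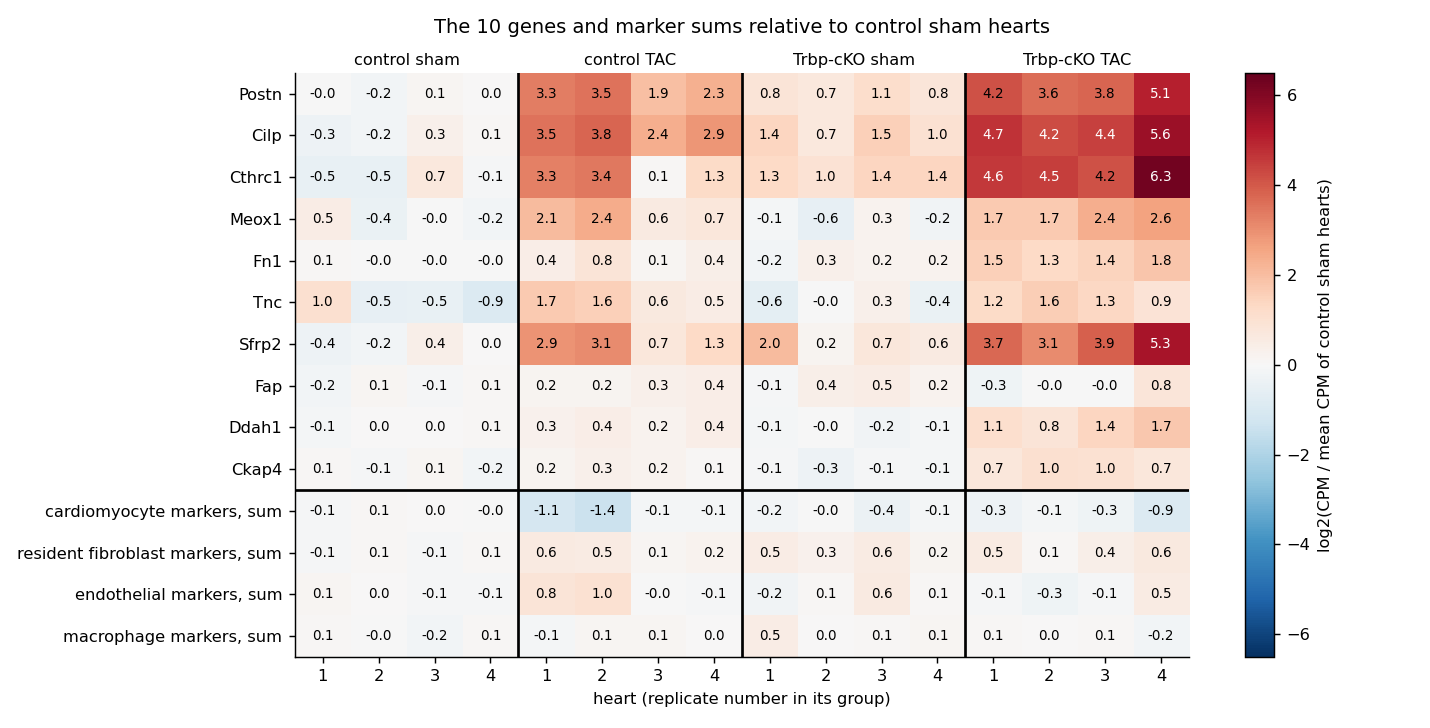
Log2 ratio of each heart's CPM to the mean of the control sham hearts, for the 10 genes and, under the line, for the summed CPM of 4 marker lists, with the 16 hearts as columns by group and the colour scale at right. Control TAC hearts 1 and 2 and Trbp-cKO TAC heart 4 combine values of most of the 10 genes that are high for their group with the 3 lowest sums of cardiomyocyte markers, from 22356 to 31979.7 CPM.

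For each of the 10, the gene outside the group with the most similar deviations from the group means over the 16 hearts was found, as Pearson's r of log2 CPM among genes with a mean log2 CPM of at least 1. It was Pls3 for Postn (r = 0.977), Nucb2 for Cilp (0.951), Thbs4, a thrombospondin, for Cthrc1 (0.957) and Selenof for Sfrp2 (0.967). It was Trim30a for Meox1 (0.978), Usp7 for Fn1 (0.905), Gbp5 for Tnc (0.904), Tbx3os1 for Fap (0.919), Thsd7a for Ddah1 (0.936) and Dok2 for Ckap4 (0.885). Within the 10, Cthrc1 and Postn were closest to each other (0.951), Cilp was closest to Postn (0.936) and Sfrp2 to Cilp (0.908). Ckap4 had no close partner among the 10, with 0.444 to Tnc at most. These are descriptions over hearts that share libraries and group structure.

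Relatives of the 10 genes numbered 12, and all of them were tested. TAC in control hearts raised 3 of the 12, Frzb (1.63, adjusted p = 0.0114) and Sfrp4 (1.49, adjusted p = 0.0217), which are further secreted Wnt-binding proteins, and Cilp2 (2.98, adjusted p = 0.0312), the close relative of Cilp. Their median log2 fold change was 0.67. Between the sham groups none was called by edgeR, and Sfrp4 came nearest at 1.36 (adjusted p = 0.0573). At an unadjusted p under 0.05 there were 4, beside 3178 of 20300 genes in the fit without Trbp-cKO TAC heart 4. Cilp2 was the 1 relative higher in Trbp-cKO TAC than in control TAC hearts, by 3.20 (adjusted p = 0.00928), with 10.4 ± 8.00 CPM (SD, n = 4) against 1.14 ± 1.00, and the median of the 12 was -0.06. In Trbp-cKO hearts TAC raised Cilp2 (5.62, adjusted p = 0.000204), Frzb (1.96, adjusted p = 0.00124) and Sfrp1 (1.23, adjusted p = 0.02) and lowered Sfrp5 (-0.99, adjusted p = 0.0176). None of the 12 was called in the interaction, with Meox2 at -1.23 (adjusted p = 0.0582) and Tnxb at -1.13 (adjusted p = 0.0504) the nearest to the threshold. There 4 had an unadjusted p under 0.05, beside 4123 of 20300 genes in the fit without Trbp-cKO TAC heart 4. Without control TAC hearts 1 and 2, no relative was called for TAC in control hearts and 3 were called between the TAC groups. In that fit 1 was called higher between the sham groups, beside 0.855% of all genes, and 1 in the interaction, beside 0.375%.

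Receptors and ligands that act with these proteins numbered 20, of which 19 were tested and Dkk1, the ligand of Ckap4, was too low to be tested. Tgfb2 encodes a TGF-β ligand and had 12.7 ± 1.48 CPM (SD, n = 4) in control sham and 31.5 ± 7.15 CPM in control TAC hearts. It had 15.5 ± 0.681 CPM in Trbp-cKO sham and 82.8 ± 13.1 CPM in Trbp-cKO TAC hearts. In control hearts TAC raised 3 of the 19, Tgfb2 (1.31, adjusted p = 0.00037), Tgfb3 (1.05, adjusted p = 0.0194) and Dkk3 (1.26, adjusted p = 0.0212), and lowered Sdc4 (-0.84, adjusted p = 0.00909), which encodes syndecan-4, a co-receptor for fibronectin. Itga5, which encodes the integrin subunit that binds fibronectin, was lower in Trbp-cKO sham than in control sham hearts (-0.83, adjusted p = 0.0446). None of the 19 was called higher there. After TAC, Trbp-cKO hearts were higher than control hearts in 5 of the 19, among them Tgfb2 (1.39, adjusted p = 0.000119), Tgfb3 (1.72, adjusted p = 0.000757), Sdc4 (0.86, adjusted p = 0.00662) and Dkk3 (1.31, adjusted p = 0.0158). The median log2 fold change of the 19 was 0.53 in this comparison. TAC in Trbp-cKO hearts raised 9 of the 19 and lowered none, Tgfb2 by 2.41 (adjusted p = 7.43e-07) and Tgfb3 by 2.16 (adjusted p = 4.89e-05). The interaction was called for 3, Sdc4 (1.47, adjusted p = 0.00779), Tgfb2 (1.10, adjusted p = 0.026) and Itga5 (1.26, adjusted p = 0.0416). Sdc4 was thus lower after TAC in control hearts and not in Trbp-cKO hearts, where TAC gave 0.63 (adjusted p = 0.0225), below the fold threshold. Its mean was already lower in Trbp-cKO sham (20.4 ± 2.80 CPM, SD, n = 4) than in control sham hearts (31.0 ± 7.26), though not called. After TAC it was 31.5 ± 4.02 CPM in Trbp-cKO and 17.3 ± 1.98 CPM in control hearts. The Sdc4 interaction thus also holds the difference between the sham groups. Without control TAC hearts 1 and 2, 1 of the 19 was called higher and 0 lower for TAC in control hearts. The Sdc4 call was thus lost. All 4 control TAC hearts nonetheless had 15.1 to 19.6 CPM of Sdc4, below the 20.7 to 37.4 CPM of control sham hearts. Between the TAC groups 3 were called higher and 1 lower in that fit.

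A further list of 22 activated-fibroblast and matrifibrocyte genes, of which Cilp2 is also a relative of Cilp and Acta2 also a smooth muscle marker, went mostly the way of the 10. Like the 10, the list was chosen with earlier results of these data known, so its likeness to them is no independent support. TAC in control hearts raised 10 of the 22, with Ltbp2 at 3.20 (adjusted p = 0.000573), Mfap4 at 2.38 (adjusted p = 0.000939) and Piezo2, a mechanically gated channel, at 2.64 (adjusted p = 0.00516), and the median was 1.25. Acta2, which encodes smooth muscle actin, was the 1 gene lowered, by -1.27 (adjusted p = 0.0164), from 219.8 ± 64.4 CPM (SD, n = 4) to 91.2 ± 12.5. It was also the 1 gene called between the sham groups, higher in Trbp-cKO hearts by 1.18 (adjusted p = 0.0417). Trbp-cKO TAC hearts exceeded control TAC hearts in 7 of the 22, with Scx at 1.45 (adjusted p = 8.75e-05), Acta2 at 2.35 (adjusted p = 0.000289), Cilp2 as given above and Angptl7 at 2.50 (adjusted p = 0.013). The median was 1.05 there. In Trbp-cKO hearts TAC raised 18 of the 22, among them Scx, a tendon transcription factor (1.67, adjusted p = 1.32e-05), Ltbp2 (3.69, adjusted p = 3.47e-05), Fmod, a small proteoglycan of tendon and cartilage (6.12, adjusted p = 0.000107), and Mfap4 (2.53, adjusted p = 0.000118). The median of the 22 was 2.16. TAC lowered 1 of them in Trbp-cKO hearts, Lrrc15 (-2.29, adjusted p = 0.0357), while Acta2 gave -0.10. Scx was the 1 gene called in the interaction, at 1.77 (adjusted p = 0.00154), and its 8.65 ± 1.09 CPM in control sham, 8.07 ± 1.35 in control TAC and 6.96 ± 0.787 in Trbp-cKO sham hearts stood against 22.1 ± 4.12 in Trbp-cKO TAC hearts. Without control TAC hearts 1 and 2, 3 of the 22 were called higher for TAC in control hearts and 13 between the TAC groups. None was called lower for TAC in control hearts, so that the Acta2 call was lost. All 4 control TAC hearts nonetheless had 81.4 to 109 CPM of Acta2, below the 149 to 292 CPM of control sham hearts. In the interaction, the fit without control TAC hearts 1 and 2 called 3 of the 22 higher, beside 0.375% of all genes. Without Trbp-cKO TAC heart 4 as well, 6 were called, beside 0.853%. The other 5 smooth muscle markers summed to 216 to 249 CPM in control TAC and 206 to 260.05 CPM in Trbp-cKO TAC hearts, so that their sum did not rise with Acta2, although Cnn1 among them was called higher. Smtn alone gave a mean of 130 CPM in control TAC and 119 CPM in Trbp-cKO TAC hearts, most of that sum. Tagln (30.4 to 41.3 CPM) and Cnn1 (2.04 to 3.79 CPM) had higher means in Trbp-cKO TAC hearts, and Myh11 and Mylk lower ones.

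**Figure D4:**
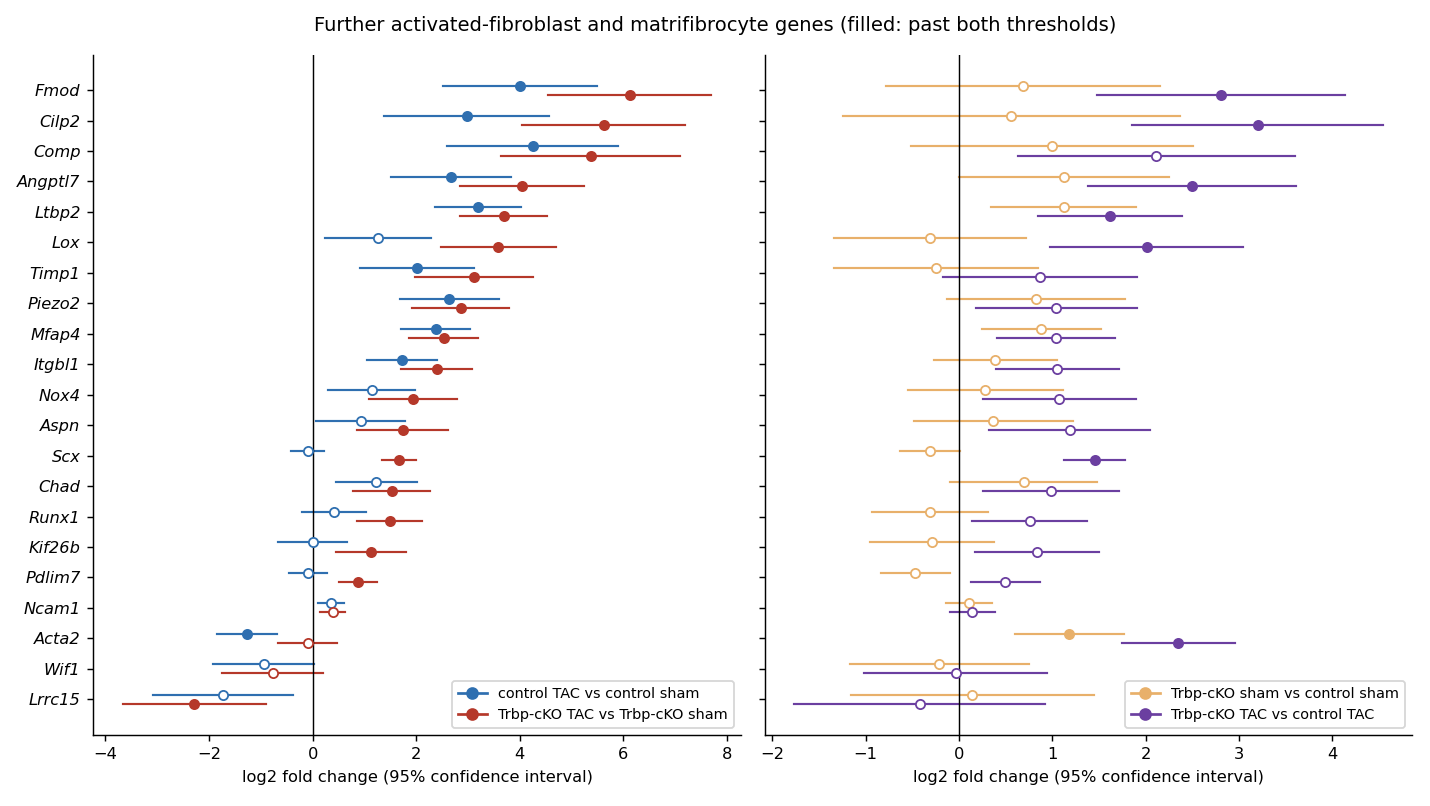
Fitted log2 fold changes (horizontal axis) with 95% confidence intervals of 21 of the 22 further activated-fibroblast and matrifibrocyte genes, for TAC against sham surgery in each genotype at left and Trbp-cKO against control hearts after each surgery at right, with filled circles for genes past both thresholds. In Trbp-cKO hearts TAC raised 17 of the 21 genes plotted and lowered Lrrc15, and Acta2 is the gene that TAC lowered in control hearts.

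Clock genes differed between the groups and moved with them. The clock score, the mean standardized level of 5 morning genes minus that of 10 evening genes, was 1.11 to 2.41 in control sham hearts and -0.22 to 0.0058 in control TAC hearts. It was -1.93 to -1.64 in Trbp-cKO sham and -0.99 to 1.79 in Trbp-cKO TAC hearts. The sham groups did not overlap in it, nor did the sham and TAC hearts of either genotype, so that the score cannot be told apart from genotype in sham hearts or from surgery within a genotype. The TAC groups overlapped. The time of day at which hearts were taken is not given in the sources used here. With the score in the fit, Postn and Cilp remained called for TAC in control hearts (3.21, adjusted p = 0.0197, and 3.54, adjusted p = 0.0108), beside 0.210% of all genes called higher. Between the TAC groups Cilp, Cthrc1, Fn1 and Ddah1 remained called, beside 258 of 19955 genes called higher.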

How the data were processed

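RNA from fresh ventricles was isolated with TRIzol by the authors, selected with oligo(dT) beads and sequenced as paired reads of 150 bases. Per the submitters' processing notes, trimming used cutadapt 2.3, alignment to GRCm38 used HISAT2 2.1.0 and transcript assembly used StringTie 1.3.4. The deposited values are whole-number counts for each gene and heart, without normalization, made by StringTie's script from coverage and an assumed read length that is not given in the sources used here. A fit of counts divided by 2 was therefore an alternative. Such counts are no direct read numbers, and reads of overlapping genes on opposite strands may be shared. Strandedness and annotation release are not given in the sources used here. Symbols and positions came from GENCODE release M21, which placed 55480 of the 55573 genes.

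The counts were analysed with edgeR 4.0.16 in R 4.3.3: default filter by group, TMM and 1 robust quasi-likelihood model of the 16 hearts with 4 group terms. Adjusted p-values are Benjamini-Hochberg values over 19955 genes, and the thresholds of 0.05 and 0.8 were those of the authors. edgeR's exact test was an alternative. The fit was tested on simulated data. Total counts were 45166994 to 68274222, and counting error weighs most on the genes with the fewest counts, Cthrc1 above all. The hearts were labelled as separate biological replicates.

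The 10 genes and all lists were chosen with earlier results of these data known. Named were the 10 genes, up to 4 called genes of each list by smallest p (up to 2 with none called), marker sums and the nearest gene outside the 10. The values of 1 gene of the further list are not reported here, though its list's counts and medians include it. Alternatives were DESeq2 1.42.0, other filters, scalings and thresholds, fits of 2 groups, a clock score, a replicate block and each heart left out. Promoter windows of GRCm38.p6 came from RefSeq.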

Additional observations from a re-analysis of the deposited data

Results flagged for a closer look

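Cthrc1 in Trbp-cKO TAC hearts and Tnc in control sham hearts each had 1 heart far from the others. The gap between the highest heart and its neighbour was 0.895 of the group's range for Cthrc1, with heart 4 at 8.58 CPM against 1.98 to 2.67, and 0.887 for Tnc, with heart 1 at 3.72 CPM against 0.969 to 1.28. Of 40 sets of 4 hearts looked at, 2 stood out in this way, and a test at the 95% level lets chance mark about 2 of 40. The response to TAC differed between genotypes by the interaction test for Ddah1 (1.10 on the log2 scale) and Ckap4 (0.81).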

How the results depend on the processing

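For TAC in control hearts 5 of the 10 genes were called. Halved counts ended the Cthrc1 call there, and DESeq2 added Tnc. The count was 3 with no filter and 2 with only the 2 groups compared, with the clock score, without control TAC hearts 1 and 2 and without these and Trbp-cKO TAC heart 4, and it ran from 2 to 6 when each heart was left out in turn. Between the sham groups the count of 0 became 1 with library size only, with DESeq2 and without control TAC hearts 1 and 2, 2 with only the 2 groups compared and 3 with edgeR's exact test and without the 3 hearts, with 0 to 1 on leaving out each heart. Between the TAC groups the count of 5 became 0 with only the 2 groups compared, 4 with edgeR's exact test, without Postn, and 7 with library size only, with 3 to 6 on leaving out each heart. For TAC in Trbp-cKO hearts the 9 calls became 5 with the clock score, with 8 to 9 on leaving out each heart. The 2 interaction calls became 1 with a threshold of 1 on the log2 fold change and with a minimum of 1 CPM in at least 4 hearts, 0 with the clock score and 4 without the 3 hearts, with 0 to 3 on leaving out each heart. Fn1 was called as well in the interaction with DESeq2 and with halved counts. The causes of these moves were not tested. Where the comparisons above give no share of all genes called in a fit, its count here was not set against all genes. Such a move is not read as a result about the 10 genes.

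Same-numbered hearts correlated at -0.427 to 0.21 in their deviations from the group means, with 3 of 24 pairs over 0.1. No pairing by number was seen, though a small shared effect could be missed in this way. With the replicate number as a block, the counts were 2 for TAC in control hearts, 2 between the TAC groups and 1 in the interaction, beside 247, 196 and 34 of 19955 genes called higher.

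Tarbp2 in sham hearts lost its call with the clock score (-1.48). With that score, the sign turned for the interaction of Tarbp2 (-0.20), Postn (-0.16), Cilp (-0.25), Meox1 (-0.49) and Sfrp2 (-0.76) and between the sham groups for Meox1 (0.84) and Ddah1 (0.57). The Tarbp2 interaction also turned without control TAC hearts 1 and 2 (-0.0833) and without the 3 hearts (-0.14). Tnc between the sham groups was 0.0155 with the replicate block, and Fap between the TAC groups was 0.038 with library size only. Leaving out each heart in turn gave, between the sham groups, -0.30 to 0.0512 for Meox1 and -0.35 to 0.48 for Tnc. It gave -0.0734 to 0.30 for Tnc and -0.38 to 0.021 for Fap between the TAC groups, -0.38 to 0.44 for the Tnc interaction and -0.37 to 0.0288 for Fap with TAC in Trbp-cKO hearts. None of the values with a turned sign was called. Of all 1568 values of single genes compared with the main fit, 1430 kept direction and side of the threshold, 85 lost and 34 gained a call, and 19 turned in sign.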
